A study of Homo sapiens with 4 samples.

Results

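The 47 genes described here encode tubulins and proteins that bind, nucleate, sever or steer microtubules. They are a fixed list of gene symbols, matched through their Ensembl identifiers, and all 47 were found among the 58522 genes of the deposited table. RNA-seq was performed in Ishikawa cells, a human endometrial adenocarcinoma line used as a model of the endometrial epithelium. *CDYL*-sh cells carried a short hairpin RNA (shRNA) against *CDYL*, which encodes a chromodomain protein known as a transcriptional corepressor, and control cells carried a negative control shRNA, with 2 libraries in each group. Cells of both groups were transduced and then selected with puromycin, and the shRNA vector also encodes the fluorescent protein ZsGreen. The labels number the *CDYL*-sh libraries sh1 and sh2 without saying whether these are repeats of 1 hairpin or different hairpins, and whether they came from separate cultures is not stated, so the p-values measure only the spread between these libraries.

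Microtubules are hollow polymers of alpha- and beta-tubulin dimers. They grow from rings of gamma-tubulin, exchange subunits mainly at the plus end, and are held at the minus end by other proteins. In epithelial cells they run along the apical to basal axis and carry vesicles, in migrating cells they orient the cell, and in mitosis they build the spindle. Proteins that ride on growing plus ends, such as the end-binding proteins and the CLIPs, link microtubules to membranes and to the cell cortex.

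The libraries held 22341852 to 27688447 counts and between 21263 and 21927 genes with at least 1 count. *CDYL* stood at 11.4 and 9.70 CPM (counts scaled by TMM library sizes) in *CDYL*-sh, against 50.4 and 53.0 CPM in control. The 12 epithelial markers summed to 3942 and 4185 CPM in *CDYL*-sh and 3982 and 4408 CPM in control, and among them *KRT7*, *KRT19*, *CLDN3* and *CLDN4* rose and *KRT18* fell. The 12 stromal markers summed to 27.9 and 26.6 CPM in *CDYL*-sh and 35.6 and 36.8 CPM in control, with *COL1A1* and *ACTA2* lower and *COL3A1*, *DCN* and *FAP* without a count in any library. The 10 immune markers summed to 22.1 and 19.8 CPM in *CDYL*-sh and 9.05 and 13.2 CPM in control. Most of that was *CD68*, a lysosomal protein abundant in macrophages, which rose (20.6 and 18.1 CPM in *CDYL*-sh, 7.75 and 11.6 CPM in control), while *CD3E* and *MS4A1* had no count in any library. The 6 endothelial markers summed to 10.3 and 9.65 CPM in *CDYL*-sh and 5.24 and 6.10 CPM in control, and *PECAM1* rose. The part of these shifts in the results was not tested. In bulk libraries a smaller share of cells with a transcript and less of it in each cell cannot be told apart.

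Of the 47 genes, 16 passed edgeR's quasi-likelihood test at an adjusted p of 0.05, or 34% of them, against a background of 25.7% of the 16158 genes tested. All 47 also passed the filter on low counts. In *CDYL*-sh, 9 genes were higher (19.1%, background 13.6%) and 7 were lower (14.9%, background 12.1%), and 31 did not pass. The genes that rose were *MAPRE3*, *MAP2*, *CKAP5*, *CLIP1*, *CLIP4*, *MAP9*, *CKAP2*, *CAMSAP2* and *CLIP2*. Those that fell were *MAP1A*, *CAMSAP1*, *TUBGCP2*, *TUBA1B*, *MAP4*, *TACC2* and *MAPRE1*. Over the 47 genes the median log2 change was 0.07, against 0.01 over all genes tested. For 39 of the 47 genes the CPM of the groups did not overlap, where this held for 64.3% of all genes tested. The median absolute log2 difference was 0.11 between the *CDYL*-sh libraries and 0.14 between the control libraries, and 0.28 between the groups.

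Calls of genes that fell were often lost when 1 library was left out, above all without *CDYL*-sh replicate 2. The genes that rose kept more of their calls. Such a fit leaves a lone library in a group, and each called fewer of all genes tested than the main fit. That loss over all genes was also largest without *CDYL*-sh replicate 2, where higher and lower calls both became fewer. All 7 genes that fell stayed lower in every alternative, with *MAPRE1* coming closest to no change (log2 fold change -0.256). In limma on log2 FPKM (fragments scaled by gene length and depth), with either pseudocount, only *CKAP5* and *CLIP1* of 46 genes tested passed, and no gene was lower, with 6 higher and 6 lower at an unadjusted p under 0.05. That test called 2.96% of all genes with a pseudocount of 1.

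**Figure D1:**
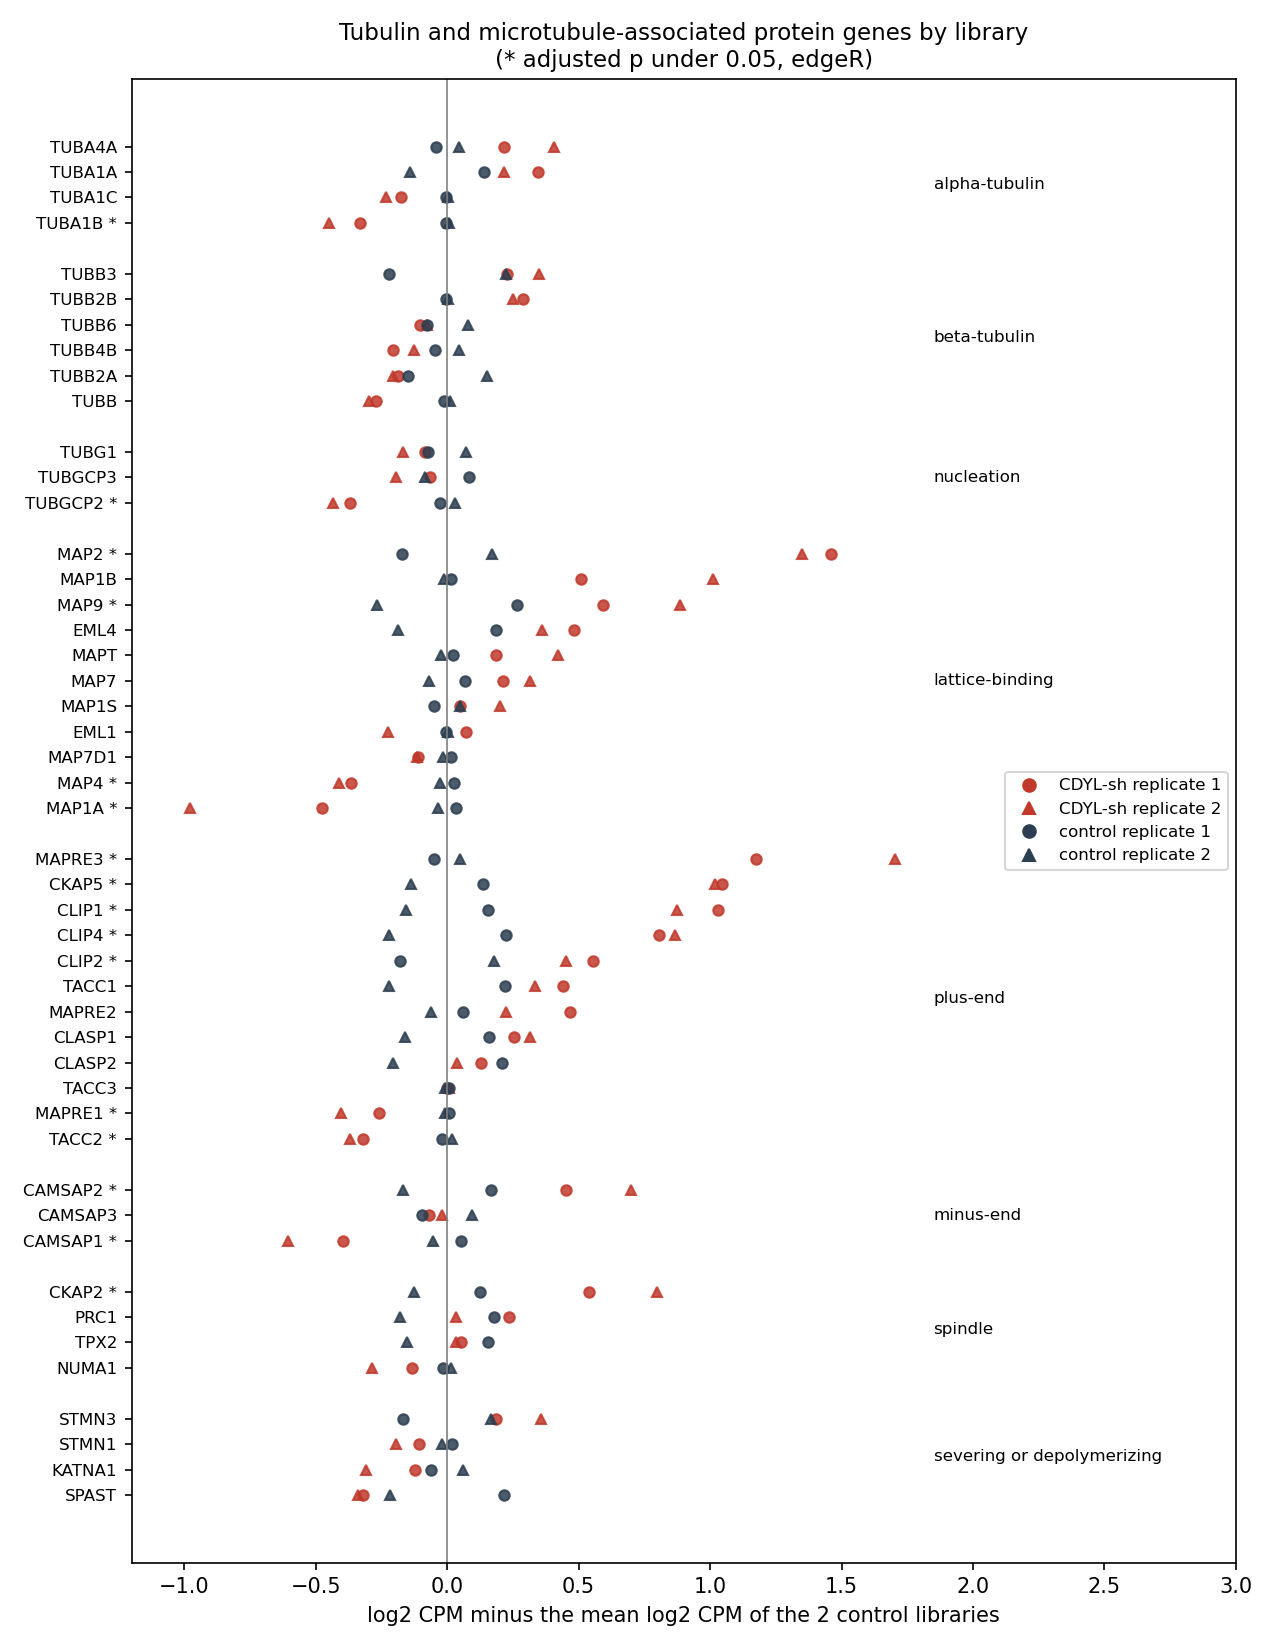
Each library's log2 CPM minus the mean log2 CPM of the 2 control libraries, for the 47 genes grouped by role (*CDYL*-sh in red, control in dark blue, circles for replicate 1 and triangles for replicate 2, asterisks for an adjusted p under 0.05). The *CDYL*-sh points of *MAPRE3*, *MAP2*, *CKAP5* and *CLIP1* lie far to the right, while those of *MAP1A*, *CAMSAP1* and *TUBA1B* lie to the left of both control points.

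Among the alpha-tubulin genes, which encode the subunit exposed at the minus end, 1 of 4 changed (25%, background 25.7% for either direction). *TUBA1B* (ENSG00000123416, chr12:49127782-49131397, minus strand, GRCh38) is the most abundant tubulin gene here, and it had 3027 and 2792 CPM in *CDYL*-sh libraries, against 3794 and 3826 CPM in control libraries. Both *CDYL*-sh values lay below both control values, and the log2 fold change was -0.39 (standard error 0.12, edgeR adjusted p = 0.0203). The call for *TUBA1B* was lost in edgeR's test without *CDYL*-sh replicate 2 (-0.33, adjusted p = 0.162), without control replicate 1 (-0.40, adjusted p = 0.0881) and without control replicate 2 (-0.38, adjusted p = 0.095). *TUBA1C* had 680 and 655 CPM in *CDYL*-sh and 767 and 771 CPM in control, which did not pass (log2 fold change -0.20, standard error 0.11). The log2 fold change was 0.28 for *TUBA1A* (standard error 0.22) and 0.31 for *TUBA4A* (standard error 0.12). The adjusted p of 0.0648 for *TUBA4A* from edgeR was the smallest of the 31 genes that did not pass.

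The 3 *TUBA1* genes lie together on chromosome 12 and are much alike in coding sequence. The coding sequence of *TUBA1A* was 97.2% identical to that of *TUBA1B*, and *TUBA1B* was 96.8% identical to *TUBA1C* (GENCODE canonical transcripts on GRCh38).

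Every tubulin among the 10 alpha and beta genes had expected counts that were not whole in all 4 libraries, as estimates have when reads are divided between genes. The same held for *TUBG1*, *TUBGCP2*, *MAP7*, *PRC1*, *NUMA1* and *STMN3*, so this was not particular to the tubulins. *TUBB*, *TUBB4B* and *TUBB6* shared no stretch of 150 coding bases with another of the listed beta genes. Stretches of 150 bases were shared exactly for 8.8% of the *TUBA1A* coding windows with *TUBA1B*, for 14.7% of the *TUBA1B* windows with *TUBA1C*, and for 60.2% of the *TUBB2A* windows with *TUBB2B*. The division of reads between copies is therefore most uncertain for *TUBB2A* and *TUBB2B*, while most such stretches of the *TUBA1* genes differ between the copies. *TUBA1B* also overlaps *TUBA1B-AS1* on the opposite strand over 1571 bp. Whether the counting used strand is not given in the sources used here.

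None of the 6 beta-tubulin genes passed edgeR's test (background 25.7%), with 1 at an unadjusted p under 0.05. That gene was *TUBB*, the most abundant beta-tubulin gene by mean FPKM over the 4 libraries, with 2393 and 2351 CPM in *CDYL*-sh and 2865 and 2912 CPM in control. Both *CDYL*-sh values lay below the control values, with a log2 fold change of -0.28 (standard error 0.11, edgeR adjusted p = 0.0751). *TUBB* passed in 6 of 19 alternatives, which were 4 other tests (limma-voom, DESeq2, and the exact and likelihood ratio tests of edgeR) and the quasi-likelihood test with no filter on low counts or with the replicate block. *TUBB4B*, the other abundant beta isotype, had 1263 and 1334 CPM in *CDYL*-sh and 1409 and 1502 CPM in control (log2 fold change -0.16, standard error 0.11). *TUBB3*, an isotype best known from neurons, had 14.0 and 15.3 CPM in *CDYL*-sh and 10.3 and 14.0 CPM in control, and it passed as higher without control replicate 2 (0.51, edgeR adjusted p = 0.015). *TUBB2A*, *TUBB2B* and *TUBB6* had log2 fold changes of -0.20, 0.27 and -0.09, with standard errors of 0.14, 0.20 and 0.10.

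FPKM is scaled by length, so levels of different genes can be summed. The 4 alpha-tubulin genes summed to 3309 and 2977 FPKM in *CDYL*-sh, against 3999 and 3917 FPKM in control, so that the *CDYL*-sh mean was 79.4% of the control mean. The 6 beta-tubulin genes summed to 2144 and 2108 FPKM in *CDYL*-sh, against 2425 and 2471 FPKM in control, or 86.8%. In neither sum did the groups overlap, and *CDYL*-sh was the lower group. With 2 libraries against 2, the exact two-sided permutation test gave p = 0.333 for each sum, the smallest it can give. *TUBA1B* made up 70.6% and 70.0% of the alpha sum in *CDYL*-sh and 72.3% and 72.7% in control. *TUBB* made up 48.1% and 46.6% of the beta sum in *CDYL*-sh and 50.3% and 49.0% in control, and *TUBB4B* was slightly above it in *CDYL*-sh replicate 2, at 46.9%. The isotype makeup differed by a few percentage points between the groups.

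**Figure D2:**
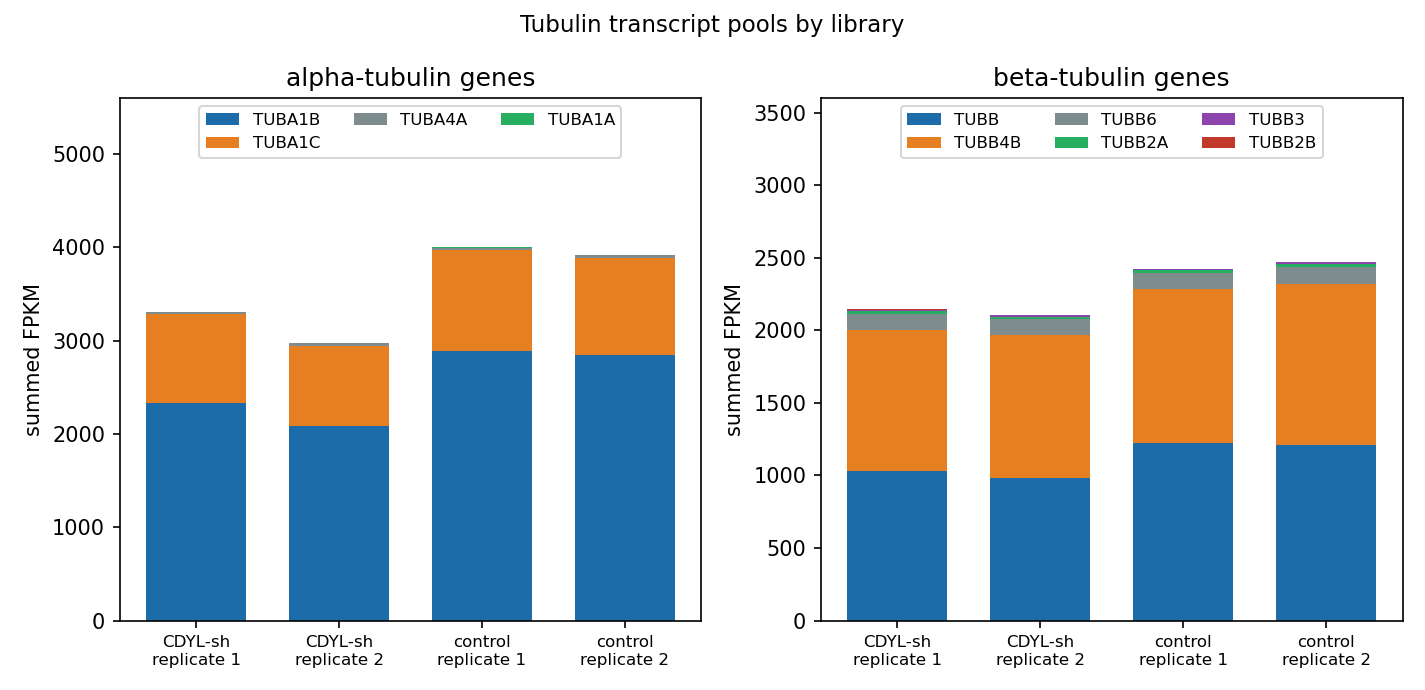
Summed FPKM of the 4 alpha-tubulin genes (left) and the 6 beta-tubulin genes (right) in each library, stacked by gene. *TUBA1B* and *TUBA1C* make up nearly all of the alpha sum and *TUBB* and *TUBB4B* most of the beta sum, and both stacks are lower in the 2 *CDYL*-sh libraries.

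Gamma-tubulin, encoded by *TUBG1*, seeds new microtubules together with the ring proteins of the GCP family. *TUBGCP2*, a core ring subunit, had 78.3 and 74.9 CPM in *CDYL*-sh, against 99.0 and 103 CPM in control. The groups did not overlap, and *TUBGCP2* fell with a log2 fold change of -0.40 (standard error 0.10, edgeR adjusted p = 0.00847). Without *CDYL*-sh replicate 2 the value for *TUBGCP2* was -0.37 (edgeR adjusted p = 0.0816). *TUBG1* itself had 266 and 251 CPM in *CDYL*-sh and 268 and 296 CPM in control, and *TUBGCP3* stood at a log2 value of -0.13 (standard error 0.12). Neither passed. *TUBGCP2* overlaps *ZNF511* on the opposite strand over 805 bp.

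The proteins that bind along the lattice stabilise microtubules or recruit motors to them, and here 2 of 11 rose (18.2%, background 13.6%) and 2 fell (18.2%, background 12.1%). *MAP2* (ENSG00000078018, chr2:209424047-209734147, plus strand) encodes a stabiliser best known from the dendrites of neurons. It had 8.57 and 7.93 CPM in *CDYL*-sh, against 2.76 and 3.50 CPM in control. The groups lay far apart, with a 2.64-fold change (log2 1.40, standard error 0.21, edgeR adjusted p = 0.00015). *MAP1A*, another stabiliser prominent in neurons, moved the other way, with 20.7 and 14.6 CPM in *CDYL*-sh and 29.5 and 28.1 CPM in control (log2 fold change -0.70, standard error 0.15, edgeR adjusted p = 0.00257). Its *CDYL*-sh libraries differed from each other more than its control libraries did, and without *CDYL*-sh replicate 2 the *MAP1A* value was -0.47 (edgeR adjusted p = 0.0909). By FPKM, *MAP2* stood at 133% and 177% of *MAP1A* in *CDYL*-sh and at 31.4% and 36.3% of it in control. The order of the 2 genes was thus reversed by FPKM only. By CPM, *MAP2* was below *MAP1A* in every library, though their canonical transcripts are of similar length (9650 and 10266 bases).

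*MAP4*, the main microtubule-associated protein of non-neuronal cells, was the most abundant of the lattice-binding genes by mean FPKM, though below *MAP1S* in *CDYL*-sh replicate 2 (38.9 and 36.7 FPKM in *CDYL*-sh, 50.03 and 46.6 FPKM in control). It had 170 and 164 CPM in *CDYL*-sh, against 223 and 215 CPM in control. Both *CDYL*-sh values lay below the control values, and the log2 fold change of *MAP4* was -0.39 (standard error 0.10, edgeR adjusted p = 0.00869). The call for *MAP4* was lost without *CDYL*-sh replicate 2 (-0.36, edgeR adjusted p = 0.0695) and without control replicate 1 (-0.37, edgeR adjusted p = 0.0681). *MAP9*, which works at the mitotic spindle, had 8.28 and 10.2 CPM in *CDYL*-sh and 6.61 and 4.56 CPM in control (log2 fold change 0.72, standard error 0.21, edgeR adjusted p = 0.0178). The *MAP9* groups were separate but each was spread out, and the call was lost without *CDYL*-sh replicate 2 (0.57, edgeR adjusted p = 0.178) and without control replicate 2 (0.47, edgeR adjusted p = 0.0645).

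The other 7 lattice-binding genes had log2 fold changes of -0.11 to 0.77 and did not pass. *MAP1B*, the gene with the lowest FPKM of the 47, had 1.57 and 2.22 CPM in *CDYL*-sh and 1.11 and 1.09 CPM in control (log2 fold change 0.77, standard error 0.37). *EML4*, a microtubule-binding protein of the EMAP family, had a log2 change of 0.41 (standard error 0.17, edgeR adjusted p = 0.0758) and passed without control replicate 1 (0.60, adjusted p = 0.0163). *MAPT*, which encodes tau, had 0.31 (standard error 0.15) and *MAP7*, which recruits the motor kinesin-1, had 0.26 (standard error 0.14). *MAP1S*, *MAP7D1* and *EML1* had log2 fold changes of 0.13, -0.11 and -0.06.

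**Figure D3:**
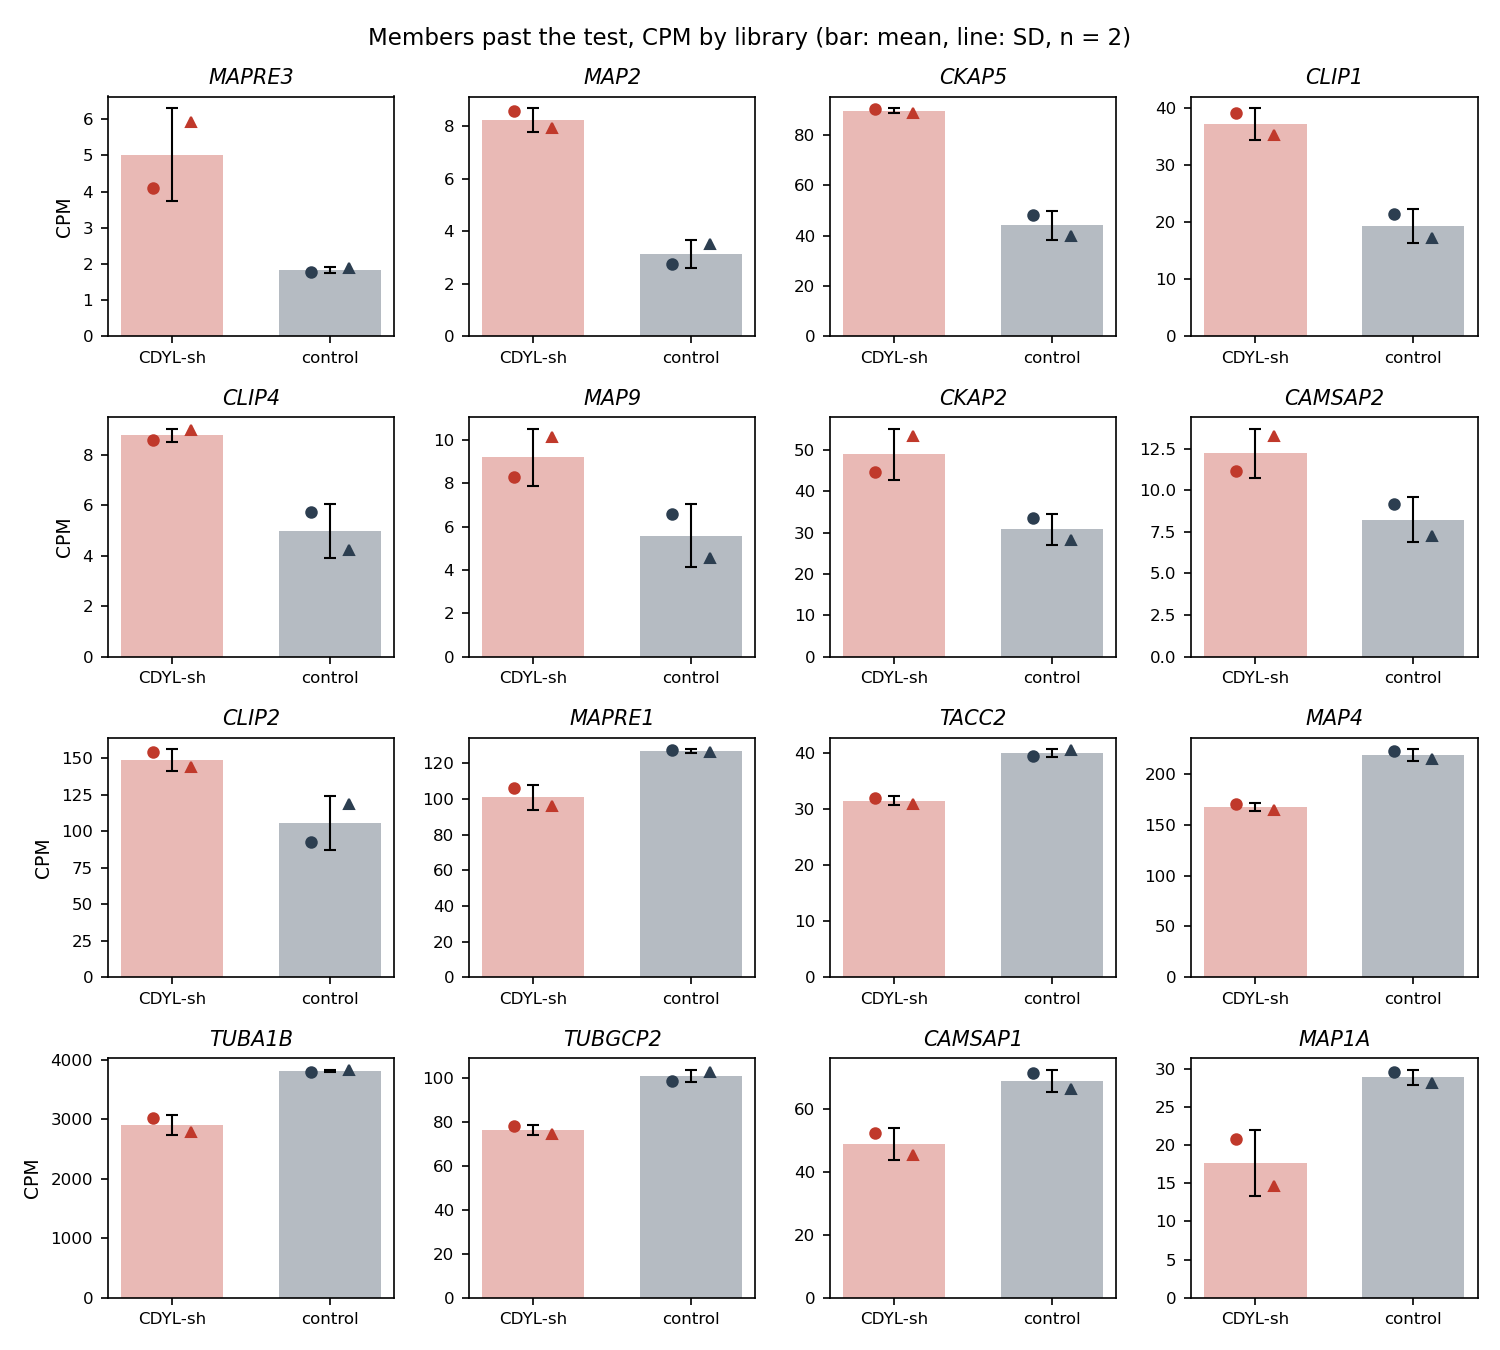
CPM of the 16 genes past the test, with *CDYL*-sh (red, left) and control (dark blue, right) in each panel. Bars are means, lines the SD (n = 2) and points the libraries, ordered from the highest log2 fold change (*MAPRE3*, 1.45) to the lowest (*MAP1A*, -0.70), and in no panel do the points of the groups overlap.

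Of the 12 plus-end genes, 5 rose (41.7%, background 13.6%), 2 fell (16.7%, background 12.1%) and 5 did not pass. Their median GC content was 44.5%, against 49.4% over all genes tested, and its part in these shares was not tested. *CKAP5* (ENSG00000175216, chr11:46743048-46846308, minus strand) encodes the microtubule polymerase ch-TOG, which adds tubulin to plus ends. It had 90.5 and 89.0 CPM in *CDYL*-sh, against 48.2 and 39.9 CPM in control. The *CDYL*-sh libraries were close to each other and well above both controls, with a 2.04-fold change (log2 1.03, standard error 0.12, edgeR adjusted p = 9.58e-06). *CLIP1* (ENSG00000130779, chr12:122271432-122422669, minus strand) encodes CLIP-170, which follows growing plus ends and links them to membranes. It had 39.2 and 35.2 CPM in *CDYL*-sh, against 21.4 and 17.2 CPM in control (log2 fold change 0.95, standard error 0.14, edgeR adjusted p = 8.07e-05). *CKAP5* and *CLIP1* passed in all 19 alternative fits, with log2 fold changes of 0.90 to 1.16 for *CKAP5* and 0.80 to 1.16 for *CLIP1*.

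The other CAP-Gly proteins of this group rose as well. *CLIP2*, which encodes CLIP-115, had 154 and 144 CPM in *CDYL*-sh, against 92.8 and 119 CPM in control. Its control libraries were the more scattered ones, with a log2 fold change of 0.49 (standard error 0.12, edgeR adjusted p = 0.00511), and without control replicate 1 the *CLIP2* value was 0.32 (edgeR adjusted p = 0.129). *CLIP4*, a less studied member of the family, had 8.61 and 8.97 CPM in *CDYL*-sh and 5.74 and 4.22 CPM in control (log2 fold change 0.82, standard error 0.20, edgeR adjusted p = 0.00655). In FPKM, which the authors computed with gene length, *CLIP4* had 3.23 and 2.98 in *CDYL*-sh and 3.61 and 1.27 in control. These FPKM overlapped, unlike the CPM.

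The 3 end-binding proteins EB1, EB2 and EB3, encoded by *MAPRE1*, *MAPRE2* and *MAPRE3*, recognise the growing tip and recruit most other plus-end proteins. *MAPRE3* (ENSG00000084764, chr2:26970637-27027219, plus strand) had 4.11 and 5.94 CPM in *CDYL*-sh, against 1.76 and 1.88 CPM in control. Both *CDYL*-sh values were more than 2 times the control values, and the log2 fold change of 1.45 was the highest of the 47 genes (standard error 0.27, edgeR adjusted p = 0.000853). *MAPRE1* (ENSG00000101367, chr20:32819954-32850405, plus strand) had 106 and 95.9 CPM in *CDYL*-sh, against 128 and 126 CPM in control (log2 fold change -0.33, standard error 0.10, edgeR adjusted p = 0.0268). The *MAPRE1* call was lost without *CDYL*-sh replicate 2 (-0.26, edgeR adjusted p = 0.265), without control replicate 1 (-0.33, adjusted p = 0.109) and without control replicate 2 (-0.34, adjusted p = 0.0663). *MAPRE2* had 23.1 and 19.6 CPM in *CDYL*-sh and 17.5 and 16.1 CPM in control, and did not pass (log2 fold change 0.35, standard error 0.14). By FPKM, *MAPRE3* stood at 5.98% and 9.18% of *MAPRE1* in *CDYL*-sh and at 2.02% and 2.32% in control. *MAPRE1* was thus the main form in every library.

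Promoter windows are shown for *MAPRE3* and *MAPRE1*, the 2 end-binding genes that moved in opposite directions, and for *CKAP5*, which had the smallest adjusted p. They are RefSeq windows on GRCh38.p14 from 250 bases before to 50 bases after the annotated start, read 5′ to 3′ on the gene's strand. Capitals mark CCAAT and GGGCGG on either strand, the letters of the CCAAT box and of the GC box, with overlapping matches counted.
MAPRE3, chr2:26970387-26970686, plus strand: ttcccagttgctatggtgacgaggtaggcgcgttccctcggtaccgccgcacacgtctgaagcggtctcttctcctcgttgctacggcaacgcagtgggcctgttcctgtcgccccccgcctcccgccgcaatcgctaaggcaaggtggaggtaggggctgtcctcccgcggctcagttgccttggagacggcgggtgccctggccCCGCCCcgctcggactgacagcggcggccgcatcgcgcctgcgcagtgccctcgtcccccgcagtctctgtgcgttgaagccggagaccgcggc
MAPRE1, chr20:32819704-32820003, plus strand: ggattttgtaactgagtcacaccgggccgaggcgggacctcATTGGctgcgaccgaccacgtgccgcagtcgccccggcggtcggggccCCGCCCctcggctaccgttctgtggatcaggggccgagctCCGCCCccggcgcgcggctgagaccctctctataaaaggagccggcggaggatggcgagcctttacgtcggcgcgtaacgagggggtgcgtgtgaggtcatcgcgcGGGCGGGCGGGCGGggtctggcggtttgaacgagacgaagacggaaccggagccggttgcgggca
CKAP5, chr11:46846231-46846530, minus strand: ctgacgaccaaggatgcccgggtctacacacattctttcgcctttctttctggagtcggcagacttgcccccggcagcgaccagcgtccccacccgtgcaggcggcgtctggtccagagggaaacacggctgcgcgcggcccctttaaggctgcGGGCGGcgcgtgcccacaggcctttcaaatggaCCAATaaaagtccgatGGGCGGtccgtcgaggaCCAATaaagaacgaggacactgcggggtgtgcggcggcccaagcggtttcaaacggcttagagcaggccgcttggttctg

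*CKAP5* held 2 CCAAT and 2 GGGCGG, *MAPRE1* 1 CCAAT and 5 GGGCGG, and *MAPRE3* no CCAAT and 1 GGGCGG in the window shown, which is 1 of 2 listed for that gene. Of all 35116 windows of this length, 34.6% held CCAAT and 45% held GGGCGG. Among the genes that rose, 8 of 9 had a window, of which 3 held CCAAT and 6 held GGGCGG. All 7 genes that fell had a window, of which 4 held CCAAT and 6 held GGGCGG. Of the 31 genes that did not pass, 28 had a window, of which 11 held CCAAT and 17 held GGGCGG. For the 47 genes 1 window was read per gene, while the shares over all windows count every listed window. These are matches of letters, and nothing measured here bears on binding.

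The TACC proteins bind ch-TOG and bring it to spindle poles or plus ends. *TACC2* had 32.0 and 30.9 CPM in *CDYL*-sh, against 39.4 and 40.4 CPM in control (log2 fold change -0.34, standard error 0.12, edgeR adjusted p = 0.0379). The groups were separate, but the *TACC2* call was the least stable of the 16. It was lost in 8 of 19 alternatives, among them each fit without 1 library, where the log2 fold change ran from -0.39 to -0.32 (edgeR adjusted p = 0.108 without *CDYL*-sh replicate 1, 0.26 without *CDYL*-sh replicate 2, 0.065 without control replicate 1 and 0.0761 without control replicate 2). *TACC3*, the most abundant plus-end gene by FPKM (116 and 113 FPKM in *CDYL*-sh, 113 and 109 FPKM in control), had 230 and 231 CPM in *CDYL*-sh and 231 and 229 CPM in control. The 4 *TACC3* libraries were nearly equal (log2 fold change 0.00, standard error 0.10). *TACC1* stood at a log2 fold change of 0.37 (standard error 0.15, edgeR adjusted p = 0.0705). *CLASP1* and *CLASP2*, whose products rescue shrinking microtubules, had 0.27 and 0.07 (standard errors 0.13 and 0.18). Without control replicate 1, *TACC1* (0.60, edgeR adjusted p = 0.00955) and *CLASP1* (0.43, adjusted p = 0.0389) passed as higher.

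The CAMSAP proteins protect minus ends that are free of centrosomes, as most are in polarised epithelia. *CAMSAP1* had 52.3 and 45.2 CPM in *CDYL*-sh, against 71.3 and 66.3 CPM in control (log2 fold change -0.50, standard error 0.11, edgeR adjusted p = 0.00391). *CAMSAP2* had 11.2 and 13.3 CPM in *CDYL*-sh, against 9.19 and 7.27 CPM in control (log2 fold change 0.57, standard error 0.18, edgeR adjusted p = 0.0275). The paralogues thus moved in opposite directions. By FPKM, *CAMSAP2* stood at 15.3% and 29.6% of *CAMSAP1* in *CDYL*-sh and at 7.01% and 7.77% in control. *CAMSAP1* had 10.7 and 6.49 FPKM in *CDYL*-sh and 18.8 and 13.1 FPKM in control, more spread within each group than its CPM. By CPM, the ratio of *CAMSAP2* to *CAMSAP1* differed less between the groups. Without *CDYL*-sh replicate 2 neither passed (*CAMSAP1* -0.39, adjusted p = 0.0783 and *CAMSAP2* 0.44, adjusted p = 0.278, both edgeR). The *CAMSAP2* call was also lost without control replicate 2 (0.41, edgeR adjusted p = 0.078) and in DESeq2 (0.56, adjusted p = 0.0511), where the other 15 calls remained. *CAMSAP3*, the epithelial form and the most abundant of the 3 by mean FPKM, though below *CAMSAP1* in control replicate 1 (15.5 and 16.5 FPKM in *CDYL*-sh, 15.3 and 16.7 FPKM in control), had 49.1 and 50.8 CPM in *CDYL*-sh and 48.3 and 54.98 CPM in control. Its groups overlapped.

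Of 4 spindle genes, 1 passed the test, as higher (25%, background 25.7% for either direction). *CKAP2*, which encodes a spindle protein that stabilises microtubules, had 44.6 and 53.4 CPM in *CDYL*-sh, against 33.5 and 28.1 CPM in control. The groups did not overlap (log2 fold change 0.67, standard error 0.13, edgeR adjusted p = 0.0011). *NUMA1*, which anchors dynein at spindle poles and is the most abundant of these genes by mean FPKM, though below *PRC1* in both *CDYL*-sh libraries (77.5 and 67.9 FPKM in *CDYL*-sh, 86.3 and 83.9 FPKM in control), had 316 and 285 CPM in *CDYL*-sh and 343 and 350 CPM in control. It did not pass (log2 fold change -0.21, standard error 0.11). *TPX2*, which activates Aurora A, and *PRC1*, which bundles the antiparallel microtubules of the midzone, had log2 fold changes of 0.03 and 0.13 with overlapping groups. Of 20 proliferation markers, 5 rose (25%, background 13.6%) and 5 fell (25%, background 12.1%). The list had no common direction, though both shares were above the background. The summed level of these markers was 2814 and 2696 CPM in *CDYL*-sh and 2964 and 2799 CPM in control. *TOP2A* had 129 and 137 CPM in *CDYL*-sh and 77.1 and 57.9 CPM in control, and *MCM2* had 223 and 217 CPM in *CDYL*-sh and 327 and 333 CPM in control.

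None of the 4 severing or depolymerizing genes passed edgeR's test (background 25.7%), with 1 at an unadjusted p under 0.05. DESeq2 and limma-voom also called none. *STMN1*, whose product stathmin sequesters tubulin dimers, was the most abundant by FPKM (255 and 229 FPKM in *CDYL*-sh, 258 and 236 FPKM in control) and had 234 and 220 CPM in *CDYL*-sh and 255 and 249 CPM in control. *STMN3*, a relative best known from neurons, had 300.4 and 338 CPM in *CDYL*-sh and 235 and 296 CPM in control (log2 fold change 0.26, standard error 0.12). *SPAST*, which encodes the severing enzyme spastin, had a log2 change of -0.35 (standard error 0.17), and *KATNA1*, the katanin catalytic subunit, had -0.21 (standard error 0.15). Without control replicate 2, *STMN3* passed as higher (0.44, edgeR adjusted p = 0.0233) and *SPAST* as lower (-0.55, adjusted p = 0.00534). With offsets for GC content and length, *STMN3* passed as higher (0.31, edgeR adjusted p = 0.0125), and *STMN1* and *SPAST* passed as lower (-0.31, adjusted p = 0.00523 and -0.53, adjusted p = 0.00532). The fit with these offsets called 33.4% of all genes tested, against 25.7% in the main fit.

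The base composition of the transcripts went with the direction of change. Of the 16 members with a GC content under 45%, 7 rose (43.8%) and 1 fell (6.25%), and over all 5567 tested genes in that class 22.1% rose and 6.34% fell. Of the 12 members with 45 to 55% GC, none rose in edgeR's test (1 at an unadjusted p under 0.05), DESeq2 or limma-voom and 3 fell (25%), and over all genes in that class 8.13% rose and 15.7% fell. Of the 19 members with 55% GC or more, 2 rose (10.5%) and 3 fell (15.8%), close to the 10.2% and 15% over all genes in that class. The genes that rose had a median GC content of 42.1%, those that fell 53.1%, and all genes tested 49.4%. With offsets for GC content and length, 14 of the 16 calls remained. *MAP9* (0.38, edgeR adjusted p = 0.0959) and *CAMSAP2* (0.36, edgeR adjusted p = 0.0797), both poor in GC, did not pass. *MAPRE3* at 56.7% GC and *CLIP2* at 63.5% GC rose against the trend, and *MAPRE1* at 43.1% GC fell against it.

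**Figure D4:**
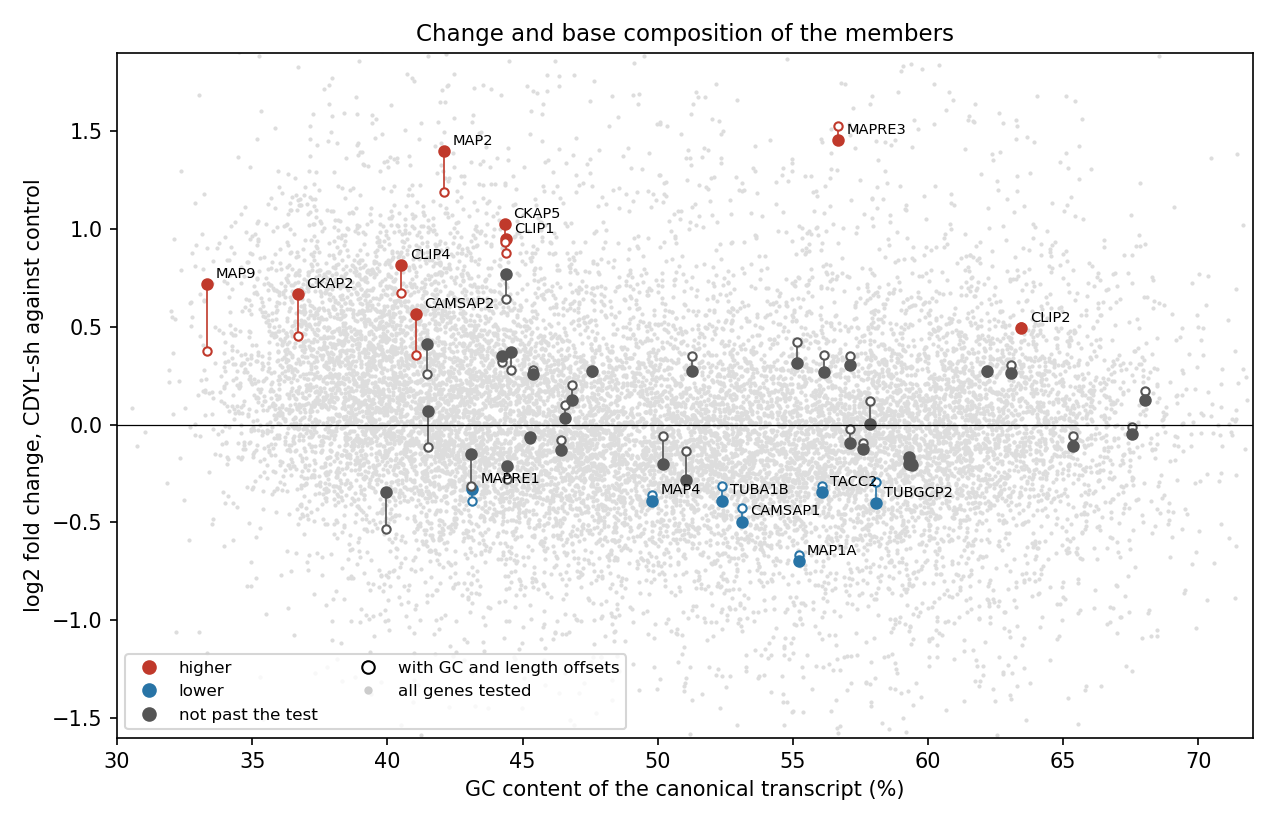
Log2 fold change of *CDYL*-sh against control (y) by GC content of the canonical transcript (x, percent), with the 47 genes over all genes tested in light grey (genes beyond the axes are not drawn). Filled points are the main values and open points those with GC and length offsets, which lower the points of GC-poor genes such as *MAP9* (0.72 against 0.38) and leave *MAPRE3* above 1.

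*MAP2* and *MAPRE3* are best known from neurons, so 20 neuronal genes were read beside them. Of the 9 that could be tested, 5 rose (55.6%, background 13.6%), 1 fell (11.1%, background 12.1%) and 3 did not pass. The gene that fell was *TUBB4A*, a beta-tubulin best known from brain, with 9.75 and 11.5 CPM in *CDYL*-sh, against 17.4 and 21.2 CPM in control (log2 fold change -0.87, standard error 0.16, edgeR adjusted p = 0.000744). All 20 genes summed to 271 and 267 CPM in *CDYL*-sh and 190 and 199 CPM in control. *CHGA*, a protein of secretory granules, had 30.6 and 30.2 CPM in *CDYL*-sh, against 4.31 and 4.90 CPM in control. *SYN1*, a protein of synaptic vesicles, had 7.18 and 8.38 CPM in *CDYL*-sh, against 1.36 and 0.867 CPM in control. *NEFH*, the heavy neurofilament, had 35.1 and 33.5 CPM in *CDYL*-sh, against 11.8 and 10.1 CPM in control. In every library most of the summed level came from genes of the list whose values are not given here. *DCX*, *ELAVL2*, *ELAVL4*, *NEFM* and *CHGB* had no count in any library. *RBFOX3*, *ELAVL3*, *STMN2*, *SYT1*, *NEFL* and *GAP43* were each at 0.0754 CPM or less in every library. The part of other cells in the *MAP2* and *MAPRE3* values was not tested beyond these levels.

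Further genes of the pathway were read from lists by function. Of 17 other tubulins and gamma-tubulin ring genes tested, 4 rose (23.5%, background 13.6%) and 1, *TUBB4A*, fell (5.88%, background 12.1%). *AKAP9*, a scaffold that holds gamma-tubulin rings at the Golgi and centrosome, had 11.7 and 12.2 CPM in *CDYL*-sh, against 6.75 and 3.50 CPM in control (log2 fold change 1.22, standard error 0.23). *CDK5RAP2*, which activates the rings, and *TUBGCP5*, a ring subunit, rose by 0.70 and 0.58 on the log2 scale. The *TUBGCP5* call was lost without *CDYL*-sh replicate 2 (0.48, edgeR adjusted p = 0.145).

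Of 21 tubulin folding genes tested, 1 rose (4.76%, background 13.6%) and 3 fell (14.3%, background 12.1%). In either direction 19% passed, against 25.7% of all genes tested. The 4 genes that passed encode subunits of the CCT chaperonin, which folds tubulin and actin. *CCT4*, *CCT6A*, *CCT7* and *TCP1*, which encode the other listed subunits, did not pass. *CCT3* had 450 and 408 CPM in *CDYL*-sh, against 707 and 754 CPM in control (log2 fold change -0.77, standard error 0.11, edgeR adjusted p = 7.84e-05). *CCT2* and *CCT5* had log2 fold changes of -0.41 and -0.37, and *CCT8* had 0.34. The *CCT3* call held in all 19 alternatives. The *CCT8* call was lost in 8 of them, among them each fit without 1 library (0.27 to 0.40, edgeR adjusted p = 0.054 to 0.174) and that with GC and length offsets (0.17, adjusted p = 0.0771). Without *CDYL*-sh replicate 2, *CCT2* (-0.30, edgeR adjusted p = 0.159) and *CCT5* (-0.27, adjusted p = 0.225) did not pass. Leaving out control replicate 1 had the same outcome for *CCT2* (-0.36, edgeR adjusted p = 0.1) and *CCT5* (-0.35, adjusted p = 0.117).

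Of 19 tubulin modification genes tested, 2 rose (10.5%, background 13.6%) and 1 fell (5.26%, background 12.1%). *AGTPBP1*, a carboxypeptidase that removes glutamates from tubulin tails, stood at a log2 fold change of 1.08 (standard error 0.19), *TTLL7*, a ligase that adds them, had 1.11 (standard error 0.22), and *TTLL4*, another such ligase, had -0.41 (standard error 0.13). The *TTLL4* call was lost without *CDYL*-sh replicate 2 (-0.33, edgeR adjusted p = 0.279) and without control replicate 1 (-0.28, adjusted p = 0.181).

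Of 62 other microtubule-binding proteins tested, 15 rose (24.2%, background 13.6%) and 3 fell (4.84%, background 12.1%), and the median log2 fold change was 0.11. *MACF1*, a spectraplakin that couples actin to microtubules, had 164 and 140 CPM in *CDYL*-sh, against 80.8 and 84.7 CPM in control (log2 fold change 0.88, standard error 0.11, edgeR adjusted p = 2.38e-05). *HAUS6*, a subunit of the augmin complex that branches microtubules, had 23.1 and 26.5 CPM in *CDYL*-sh, against 12.5 and 10.2 CPM in control (log2 fold change 1.12, standard error 0.15). *CCDC88A*, which encodes the actin-binding protein girdin, had 1.005 (standard error 0.14). *NAV2* and *GTSE1*, which binds plus ends, fell by 0.75 and 0.46 on the log2 scale. The list had a median GC content of 44.7%, against 49.4% over all genes tested. The part of GC content in its shares was not tested.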

How the data were processed

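RNA of 2 *CDYL*-sh and 2 control libraries of Ishikawa cells was sequenced as paired-end reads. According to the submitters' processing notes, GRCh38.p10, TopHat, RSEM and edgeR were used. The deposited table holds expected counts, estimated by the authors per gene and often not whole, and FPKM, which the authors scaled by length and depth. The annotation release is not given in the sources used here. Symbols, positions and GC content came from GENCODE release 44.

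Expected counts were rounded, filtered with filterByExpr (16158 genes kept), scaled by TMM and tested with edgeR 4.0.16 (glmQLFit and glmQLFTest, R 4.3.3, two-sided), with group as the only term. Adjusted p-values are Benjamini-Hochberg values over all genes tested, with a threshold of 0.05 and a prior count of 2. Standard errors belong to the log2 fold change, and the common dispersion was 0.00971. Summed FPKM were compared by an exact permutation test. The alternatives were other normalizations, filters and tools (DESeq2 1.42.0, limma 3.58.1), a replicate block, GC and length offsets, log2 FPKM with a pseudocount of 1 or 0.1, and each library left out, where a lone library is taken to vary as the other group does.

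The genes and lists were chosen with earlier results of these data known. Values in every library were given for each gene past the test and for the most abundant gene of each role by mean FPKM. From each pathway list up to 3 genes in each direction were named by adjusted p, except 1 that is not reported here. Of the marker and neuronal genes named, some were chosen after their values were seen.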

Additional observations from a re-analysis of the deposited data

How the results depend on the processing

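The counts of 9 higher and 7 lower genes stayed within 1.5 times under other normalizations, filters, count tests and unrounded counts. The replicate numbers do not pair the libraries in the labels, and the deviations of same-numbered libraries correlated by 0.03. With the replicate block, 14 genes were higher and 10 lower, among them all 16 of the main test, and 5393 of all genes passed. With the block and the GC and length offsets together, 14 were higher and 11 lower, and 35.9% of all genes tested passed. With the GC and length offsets alone, 11 were higher and 9 lower, and *MAPRE2*, *MAPT*, *SPAST*, *STMN1*, *STMN3* and *TUBA4A* were added. In that fit 33.4% of all 15828 genes tested passed, against 25.7% in the main fit, so calls were gained over all genes as well. In limma on log2 FPKM, 2 genes were higher and 0 lower with either pseudocount (6 lower at an unadjusted p under 0.05), where 461 of all genes passed with a pseudocount of 1 and 507 with 0.1. Without 1 library, fewer of the 16 calls remained, and fewest without *CDYL*-sh replicate 2. That fit also called the fewest of all genes tested among the fits without 1 library.

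The median of the 47 log2 fold changes was 0.094 with upper quartile normalization and 0.12 with the GC and length offsets, with or without the block. It ran from -0.007 to 0.076 without 1 library, so its sign is not settled. The summed beta-tubulin level was 85% of control by CPM, against 86.8% by FPKM. No gene past the test changed direction in any alternative. With 2 libraries a group, standard errors were at least 0.10 on the log2 scale, so small changes of abundant tubulin genes were near the limit of detection. The causes of these shifts were not tested.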
